A study of Mus musculus with 32 samples.

Results

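Immediate early genes are switched on within minutes of a stimulus, without new protein synthesis. Calcium entry, cAMP and growth factors act through the MAP kinases and the transcription factors SRF and CREB to start their transcription, and most of the products are unstable. In neurons these genes are the usual record of recent firing, while glia and other cells use the same genes in the response to injury, cytokines and growth factors. The set described here holds 10 such genes of the 42524 genes counted in mouse spinal cord. They were chosen by name, with earlier results of these data known. They were the AP-1 subunits Fos, Fosb and Junb, the transcription factors Egr1, Npas4 and Nr4a1, the synaptic effector Arc, and Ier2, Dusp1 and Btg2, which act on transcription, MAP kinase signalling and growth.

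Spinal cord RNA came from 32 mice in 8 groups of 4, numbered as separate samples in the labels. G93A mice carry a human SOD1 gene with an amyotrophic lateral sclerosis mutation as a transgene on the C57BL/6J background, and their wildtype (WT) littermates were the controls. Mice of each genotype were either untreated (vehicle) or given OKN007, a nitrone compound with antioxidant action in drinking water, and were taken at 90 or 155 days by the labels (the study's text gives the first age as a few days later). The dose and the sex of the sequenced mice were not given in the labels, and the study's mice were mostly female. In the study's design, mice taken near onset (its first age) or at 155 days belonged to the higher-dose cohorts, for which only females were used. Their treatment began before disease onset or, in another cohort taken at 155 days, at about onset. The study's sequencing methods did not name a cohort. The transgene runs from its own human promoter and is not confined to motor neurons, and its human transcript was not analysed here. Gene counts summed to 19701722 in the smallest and 30138257 in the largest library, and levels are given in CPM, the depth-scaled count unit, after TMM scaling. A gene at 3 counts in the smallest library would stand at 0.152 CPM, and the 10 genes held between 23 and 1474 counts in every mouse, so that each passed the filter on low counts. These limits cover counting error only.

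The promoters show which regulatory letters these genes share. RefSeq's promoter table for GRCm38.p6 (250 bases before to 50 after each start) held 7 of the 10 genes, and Egr1, Arc and Ier2 were not among them. The core TGACG of the cAMP response element, the letters that CREB recognises, was found on either strand in 7 of these 7 promoters, against 20.8% of all 32851 promoters. The whole palindrome TGACGTCA, which contains the core, was found in Btg2 and Dusp1 (2 of 7, against 1.79% of all). The AP-1 site TGANTCA was found in 0 of 7 (7.81% of all), the CArG box that SRF binds in 0 of 7 (1.63%) and the TATA box TATAAA in 2 of 7 (13.6%). These matches are a description of exact letters in a short window and not evidence of binding. Sites outside the window were not searched, so 0 of 7 does not mean that these genes lack such a site. The 250 bases before the start are printed for Fos, Junb, Npas4 and Dusp1. Fos and Junb had the largest rises in G93A mice. At 155 days Npas4 did not pass between genotypes in untreated mice. Among OKN007 mice it passed narrowly as lower in G93A, a call that did not hold under every setting. Dusp1 passed in neither. The core or palindrome is in capitals, and each stretch reads 5′ to 3′ along the gene. The Fos stretch is chr12:85473640-85473889 on the plus strand, Junb at chr8:84978749-84978998, Npas4 at chr19:4989972-4990221 and Dusp1 at chr17:26508473-26508722, all on the minus strand.
Fos: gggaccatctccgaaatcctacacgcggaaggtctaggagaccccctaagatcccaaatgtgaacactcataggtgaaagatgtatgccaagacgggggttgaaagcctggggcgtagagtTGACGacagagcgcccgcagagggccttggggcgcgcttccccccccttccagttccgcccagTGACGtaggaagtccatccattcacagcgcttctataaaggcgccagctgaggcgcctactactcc
Junb: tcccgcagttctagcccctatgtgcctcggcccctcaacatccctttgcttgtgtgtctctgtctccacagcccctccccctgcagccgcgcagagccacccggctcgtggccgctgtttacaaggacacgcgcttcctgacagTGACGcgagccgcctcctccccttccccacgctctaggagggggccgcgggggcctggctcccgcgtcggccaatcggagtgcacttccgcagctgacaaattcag
Npas4: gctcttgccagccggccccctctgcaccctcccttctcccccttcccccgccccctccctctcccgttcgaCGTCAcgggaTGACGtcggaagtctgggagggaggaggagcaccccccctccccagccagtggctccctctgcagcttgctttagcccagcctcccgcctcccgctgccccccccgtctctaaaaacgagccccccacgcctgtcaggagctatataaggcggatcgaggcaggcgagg
Dusp1: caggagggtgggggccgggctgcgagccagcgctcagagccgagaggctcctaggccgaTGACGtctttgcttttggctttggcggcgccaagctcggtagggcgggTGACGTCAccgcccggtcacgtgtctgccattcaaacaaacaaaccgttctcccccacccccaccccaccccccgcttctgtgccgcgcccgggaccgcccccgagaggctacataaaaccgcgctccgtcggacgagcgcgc
Counted from the start, the Fos stretch held the core at positions -129 and -66, and Junb held it at -106. Npas4 held it on opposite strands at -179 and -169. Dusp1 held the core at -191 and the palindrome at -143.

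Before the results, several libraries and marker lists stood apart. At 155 days untreated G93A mice had lower neuron markers than untreated WT mice (10 of 10 fell, summed level 1783 to 2553 against 3134 to 3718 CPM). Astrocyte markers rose in 6 of 6 (12550 to 16450 against 4163 to 4649 CPM) and microglia markers in 7 of 7 (705 to 1259 against 168 to 204 CPM), while endothelial markers passed in 0 of 5 and oligodendrocyte markers only for Mag (1 of 5). Caudal Hox genes, which mark the level along the cord, fell in 6 of 10 tested (summed level 4.49 to 81.3 against 90.7 to 158 CPM). Summed markers of nerve root Schwann cells exceeded 200 CPM or those of liver exceeded 50 CPM in 5 libraries, limits set after seeing the data. Replicate 3 of WT untreated and replicate 10 of G93A untreated at 90 days had 1666 and 377 CPM of nerve root Schwann cell markers, and replicate 6 of WT OKN007 at 90 days, replicate 12 of G93A untreated at 155 days and replicate 15 of G93A OKN007 at 155 days had 73.0, 181 and 122 CPM of liver markers. Liver markers reached at most 39.5 CPM in the other libraries. Skeletal muscle and blood markers passed in none of the 2 and 5 genes tested, meningeal fibroblast markers rose for Col1a1 and Col1a2 (2 of 4 tested), Schwann cell markers for Pmp22 alone (1 of 4), and liver markers passed in 0 of 4 tested. In whole tissue, fewer cells of a type and less RNA per cell cannot be told apart.

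In the untreated WT cord at 90 days all 10 genes were detected. Per kilobase of exon, with exon lengths from GENCODE M21, Arc stood highest at 10.6 CPM per kb. It was followed by Egr1 at 6.43, Dusp1 at 5.04, Fos at 4.84, Nr4a1 at 4.84 and Junb at 4.56 CPM per kb. Btg2 (3.58) and Ier2 (3.54 CPM per kb) came next, and the least abundant were Npas4 at 1.43 and Fosb at 0.260 CPM per kb. Mice of the same group differed least in Nr4a1 (median coefficient of variation over the 8 groups 10.9%) and most in Fosb (27.1%), with Fos at 22.7% and Junb at 21.1%.

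By GENCODE M21 on GRCm38, each gene lies on 1 chromosome stretch. The annotation behind the deposited counts was not settled, so the exons counted can differ from those of M21. Fos (ENSMUSG00000021250) is at chr12:85473890-85477273 on the plus strand, Fosb (ENSMUSG00000003545) at chr7:19302696-19310051 on the minus strand and Junb (ENSMUSG00000052837) at chr8:84974484-84978718 on the minus strand. Egr1 (ENSMUSG00000038418, plus), Nr4a1 (ENSMUSG00000023034, plus) and Arc (ENSMUSG00000022602, minus) are at chr18:34859823-34864984, chr15:101254269-101274795 and chr15:74669083-74672570. Npas4 (ENSMUSG00000045903), Ier2 (ENSMUSG00000053560), Dusp1 (ENSMUSG00000024190) and Btg2 (ENSMUSG00000020423) are on the minus strand at chr19:4984355-4990316, chr8:84661331-84662852, chr17:26505590-26562128 and chr1:134075170-134079120.

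In order of mean level over the 8 groups, the 2 highest for Fos were G93A OKN007 and G93A untreated at 155 days (44 ± 4.76 and 33.8 ± 12.2 CPM, SD, n = 4), and their gap to the third, WT OKN007 at 155 days (18 ± 5.97 CPM), exceeded the larger SD. The same 2 groups led for Junb (36.8 ± 5.74 and 33.1 ± 11.1 CPM), again with a gap above the third that exceeded the larger SD. For Arc these 2 groups were the lowest (20.5 ± 3.87 and 18.5 ± 4.87 CPM), and the gap to the next group up exceeded the larger SD. All other neighbours in these 3 orders, and all neighbours for Fosb, Egr1, Npas4 and Btg2, differed by less than the larger SD.

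The first question was how the genes differed between G93A and WT mice late in the disease. At 155 days in untreated mice, Fos, Junb, Egr1 and Ier2 rose and Arc fell, and the other 5 genes did not pass edgeR's quasi-likelihood test with Benjamini-Hochberg adjustment over all genes. The share of members called, 5 of 10, stood against 39.5% of the 18675 genes tested (21.3% higher and 18.2% lower in G93A mice), so the count itself was near the background. The median log2 fold change was 0.29 over the 10 genes and close to zero over all genes tested. The groups did not overlap for 3 members (Fos, Junb and Arc), against 33.3% of all genes.

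**Figure D1:**
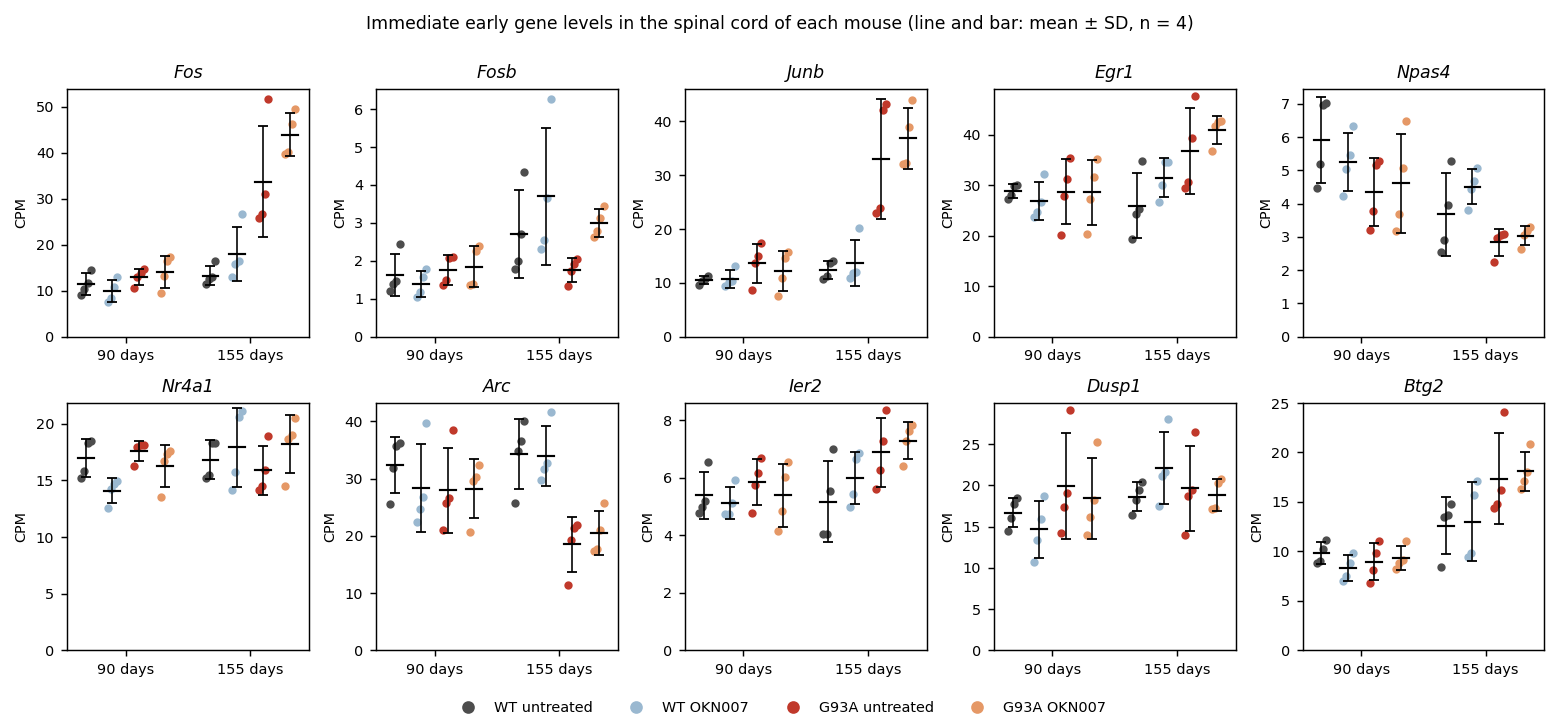
Level of each gene in CPM (vertical axes, from 0) in each mouse, in the 4 groups at 90 days (left) and 155 days (right) of each panel. Points are mice, the wide line is the mean and the bar the SD (n = 4). At 155 days Fos and Junb are high and Arc is low in both G93A groups, while the 4 groups of that age overlap for Nr4a1 and Dusp1.

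Among the AP-1 subunits, which pair as Fos-Jun dimers, Fos was measured at 25.7, 26.7, 30.9 and 51.7 CPM in untreated G93A mice and at 11.4, 12.4, 12.98 and 16.4 CPM in untreated WT mice at 155 days. The groups did not overlap. The rise was 2.61-fold (log2 fold change 1.38 ± 0.21 SE, adjusted p = 5.1e-05, edgeR quasi-likelihood test). Junb was at 23.0, 23.9, 42.1 and 43.3 CPM in G93A mice and at 10.6, 11.2, 13.6 and 14.1 CPM in WT mice. The G93A mice formed a lower and a higher pair, and both pairs lay above every WT mouse, with a 2.74-fold rise (log2 1.45 ± 0.22 SE, adjusted p = 3.2e-05, edgeR). Fosb, the subunit whose truncated form accumulates with repeated stimulation, did not follow them. It was at 1.33, 1.72, 1.91 and 2.06 CPM in G93A mice and at 1.79, 2.001, 2.70 and 4.35 CPM in WT mice, groups that overlapped (log2 -0.60 ± 0.31 SE, adjusted p = 0.14, edgeR).

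Among the other transcription factors, Egr1, a zinc finger protein induced through SRF, was at 29.5, 30.6, 39.4 and 47.7 CPM in G93A mice and at 19.3, 24.3, 25.4 and 34.8 CPM in WT mice. The groups overlapped through the highest WT mouse, and the rise of 1.46-fold passed the test (log2 0.54 ± 0.15 SE, adjusted p = 0.0087, edgeR). Npas4, a factor that is selective for calcium entry in neurons, was at 2.24 to 3.09 CPM in G93A mice and at 2.55 to 5.30 CPM in WT mice and did not pass (log2 -0.33 ± 0.19 SE, adjusted p = 0.19, edgeR). Nr4a1, an orphan nuclear receptor, had means of 15.9 ± 2.17 and 16.8 ± 1.73 CPM (SD, n = 4) with overlapping groups. Its log2 difference was -0.04, with a 95% interval from -0.33 to 0.25.

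Arc, whose product acts at synapses in the removal of AMPA receptors, moved the other way. It was at 11.4, 19.3, 21.4 and 21.9 CPM in untreated G93A mice and at 25.8, 34.8, 36.6 and 40.1 CPM in untreated WT mice. Every G93A mouse lay below every WT mouse, and the level was 1.79-fold lower (log2 -0.84 ± 0.18 SE, adjusted p = 0.0011, edgeR). The neuron markers, 10 of 10 of which fell, had a median log2 fold change of -0.62 in the same comparison, and their part in the fall of Arc was not tested. The astrocyte and microglia lists had medians of 0.69 and 2.08, and their part in the rises of Fos and Junb was not tested either.

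Of the 3 regulators, Ier2, a small nuclear protein of the early response, was at 5.61, 6.28, 7.28 and 8.37 CPM in G93A mice and at 4.04, 4.05, 5.55 and 6.98 CPM in WT mice. The groups overlapped, and the rise of 1.38-fold was close to the threshold (log2 0.46 ± 0.17 SE, adjusted p = 0.043, edgeR). It missed the threshold without WT replicate 1, 3 or 4 or G93A replicate 10 or 11 (adjusted p between 0.057 and 0.14), with RLE factors (0.0501), in a fit of only the compared groups (0.10) and without the mice above the Schwann cell or liver limit (0.052). Btg2, an antiproliferative gene that responds to p53, was at 14.4 to 24.1 CPM in G93A mice and at 8.40 to 14.8 CPM in WT mice (log2 0.51 ± 0.21 SE, adjusted p = 0.059, edgeR). It passed with DESeq2 (adjusted p = 0.044), with no filter on low counts (0.0049), in a fit of all 32 mice (0.041), without the mice above the Schwann cell or liver limit (0.049), or without WT replicate 2 or G93A replicate 9 or 12 (adjusted p of 0.039, 0.043 and 0.044). Dusp1, the phosphatase that switches off MAP kinases, had means of 19.6 ± 5.14 and 18.6 ± 1.74 CPM (SD, n = 4) and overlapping groups (log2 0.12, 95% interval from -0.21 to 0.46).

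The caudal Hox score, which differed between these groups, was also entered as a covariate. Summed caudal Hox levels were 4.49 to 81.3 CPM in untreated G93A mice and 90.7 to 158 CPM in untreated WT mice. These ranges did not overlap, so this fit cannot tell cord level and genotype apart. With it, Fos rose by 1.19 (adjusted p = 0.0082), Junb by 1.46, Egr1 by 0.72 and Arc fell by 1.07 on the log2 scale, and these 4 genes passed edgeR's test, while Ier2 did not (0.44, adjusted p = 0.20). For Npas4 the value turned to 0.090, and 4526 of all 18675 genes passed in this fit.

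The same genotype comparison was made in mice given OKN007. At 155 days Fos, Junb, Egr1 and Btg2 rose and Arc and Npas4 fell, 6 of 10 members against 41.5% of the 18675 genes (23.3% higher and 18.2% lower). The groups did not overlap for 5 members, against 45.4% of all genes. Neuron markers fell in 10 of 10, microglia markers rose in 7 of 7 and caudal Hox genes fell in 6 of 10 here too, and 1 of 4 liver markers tested rose. Fos was at 39.9, 40.3, 46.3 and 49.6 CPM in G93A OKN007 mice and at 12.96, 15.9, 16.5 and 26.7 CPM in WT OKN007 mice (log2 1.36 ± 0.21 SE, adjusted p = 4.0e-05, edgeR). Junb was at 32.1, 32.3, 39.1 and 43.9 CPM against 10.8, 11.9, 11.98 and 20.1 CPM (log2 1.501 ± 0.21 SE, adjusted p = 1.7e-05, edgeR). Both genes were higher in each G93A mouse than in each WT mouse, and replicate 5 was the highest WT mouse for Fos, Junb and Fosb. Arc was at 17.4, 17.8, 21.01 and 25.7 CPM against 29.8, 31.6, 32.8 and 41.7 CPM, again with no overlap (log2 -0.66 ± 0.18 SE, adjusted p = 0.0062, edgeR).

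Npas4 was at 2.63, 3.05, 3.19 and 3.28 CPM in G93A OKN007 mice and at 3.82, 4.44, 4.69 and 5.07 CPM in WT OKN007 mice. These groups did not overlap, and the fall of 1.41-fold passed narrowly (log2 -0.49 ± 0.19 SE, adjusted p = 0.045, edgeR). Egr1 rose by 0.46 ± 0.15 SE (adjusted p = 0.022) and Btg2 by 0.55 ± 0.21 SE (adjusted p = 0.040) on the log2 scale in edgeR's test. Each of these 3 calls was lost without some single mice, while the direction stayed. Without single mice the log2 values were 0.38 to 0.51 for Egr1, 0.41 to 0.71 for Btg2 and -0.56 to -0.44 for Npas4. Egr1 missed the threshold without WT replicate 6 or 7 or G93A replicate 13, 14 or 15, Btg2 without WT replicate 6 or 8 or any G93A mouse, and Npas4 without any mouse except WT replicate 7 (adjusted p between 0.052 and 0.14). Without the mice above the liver limit these 3 genes stood at adjusted p of 0.059, 0.055 and 0.054, and with the Hox score as covariate Npas4 was at -0.11 (adjusted p = 0.78) and Btg2 at 0.45 (adjusted p = 0.26). Summed caudal Hox levels were 22.6 to 66.9 CPM in these G93A mice and 130.4 to 176.5 CPM in the WT mice. The ranges did not overlap, so the Hox fit cannot tell cord level and genotype apart here either.

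Averaged over both treatments, which pools the mice of the 2 comparisons above, 7 of 10 members passed at 155 days, against 54.7% of genes (28.8% higher and 25.8% lower). Fos (log2 1.37), Junb (1.48), Btg2 (0.53), Egr1 (0.50) and Ier2 (0.41) rose, and Arc (-0.75) and Npas4 (-0.41) fell. Fosb (-0.41, adjusted p = 0.11), Nr4a1 (0.03) and Dusp1 (-0.01) did not pass edgeR's test. Each of the 7 calls held when any 1 of the 16 mice was left out. With the Hox covariate Npas4 was at -0.01 (adjusted p = 0.98), Ier2 at 0.39 (0.16) and Btg2 at 0.43 (0.18), which left 4 calls. Caudal Hox levels of the genotypes did not overlap in the pooled mice, so this fit has the same limit.

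**Figure D2:**
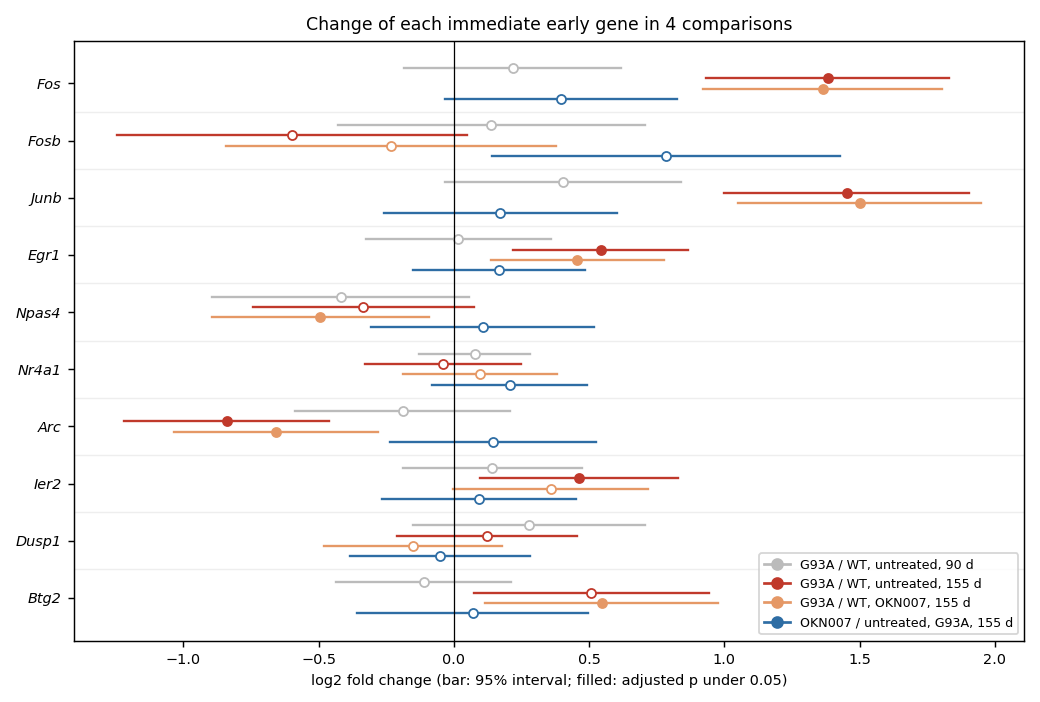
Log2 fold change of each gene (horizontal axis) with its 95% interval (bar) in 4 comparisons, colours as in the key. Filled points passed an adjusted p under 0.05 in edgeR's test. Fos and Junb lie above 1 in both genotype comparisons at 155 days and Arc lies below zero in both, while the intervals for untreated mice at 90 days all cross zero.

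The effect of OKN007 itself was asked within each genotype. No member passed in G93A mice at 155 days, where 0 of 18675 genes passed (0%, with 755 genes at an unadjusted p under 0.05, Fosb among them). Fosb was at 2.63, 2.79, 3.12 and 3.45 CPM in treated and at 1.33, 1.72, 1.91 and 2.06 CPM in untreated G93A mice. The groups did not overlap, as for 3.13% of all genes, and the difference was 1.72-fold (log2 0.78 ± 0.31 SE, unadjusted p = 0.019 and adjusted p = 0.9996 in edgeR's test). Fos had means of 44.0 and 33.8 CPM (log2 0.40, 95% interval from -0.03 to 0.82, adjusted p = 0.9996, edgeR). Over the 10 genes the values lay between -0.05 and 0.78, with 95% intervals reaching from -0.38 to 1.43. DESeq2 also called 0 genes here.

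In WT mice at 155 days 0 of 18675 genes passed for OKN007 (0%, 549 at an unadjusted p under 0.05, 2 genes with DESeq2), and the 10 members lay between -0.04 and 0.42. The largest were Fosb (0.42) and Fos (0.41, means of 18 and 13.3 CPM), whose groups overlapped. The test of whether OKN007 acted differently in G93A than in WT mice passed for 0 genes (0%, 437 at an unadjusted p under 0.05, 2 with DESeq2), with members between -0.27 and 0.36. At 90 days 0 of 18899 genes passed for OKN007 in G93A mice (0%, 1050 at an unadjusted p under 0.05) and 0 in WT mice (0%, 769), and DESeq2 called 0 in both. Nr4a1 was at 12.6, 14.2, 14.7 and 14.97 CPM in treated and at 15.2, 15.9, 18.4 and 18.5 CPM in untreated WT mice at 90 days. The groups did not overlap, as for 2.09% of genes, and the difference of -0.26 ± 0.10 SE had an unadjusted p of 0.017 and an adjusted p of 0.99 in edgeR's test.

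At 90 days no member passed between the genotypes. Of 18899 genes, 0 passed for genotype in untreated mice (0%, 1126 at an unadjusted p under 0.05), 0 passed among OKN007 mice (0%, 747), and 5 passed averaged over treatments (0.0265%), none of them a member. The interaction passed for 0 genes (0%, 531 at an unadjusted p under 0.05). DESeq2 called 16, 3, 66 and 0 genes in these 4 comparisons and 0 of the 10 members in each. Fos had means of 13.02 ± 1.77 and 11.4 ± 2.39 CPM (SD, n = 4) in untreated G93A and WT mice, and Junb of 13.7 ± 3.64 and 10.5 ± 0.686 CPM. Averaged over treatments, Fos was at 13.6 against 10.6 CPM (log2 0.36 ± 0.14 SE, unadjusted p = 0.016, adjusted p = 0.61, edgeR, 95% interval from 0.08 to 0.65). Among OKN007 mice the intervals of Fos (0.10 to 0.91) and Nr4a1 (0.00046 to 0.41) also lay above zero, with adjusted p of 0.9996 for both. Arc was at 28.0 ± 7.45 and 32.4 ± 4.88 CPM in untreated mice and Npas4 at 4.36 ± 1.03 and 5.91 ± 1.29 CPM, with overlapping groups for both.

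The 2 ages were joined to ask whether the change in G93A mice differed between them. The difference of the G93A change between 155 and 90 days in untreated mice passed for 2 of 10 members, against 21.2% of 19829 genes. For Fos it was 1.16 ± 0.31 SE on the log2 scale (adjusted p = 0.0071) and for Junb 1.04 ± 0.32 SE (adjusted p = 0.019, edgeR). Fos passed without any single mouse, while Junb lost the call without G93A replicate 12 at 90 days or without G93A replicate 10 or 11 at 155 days (adjusted p of 0.052, 0.057 and 0.055). For Arc the difference was -0.67 (adjusted p = 0.085), for Btg2 0.60 (0.12) and for Egr1 0.52 (0.12), so that their change at 155 days was not shown to differ from that at 90 days. Without WT replicate 4 at 155 days Egr1 (adjusted p = 0.028) and Arc (0.046) passed, and Arc also without G93A replicate 11 at 90 days (0.045). Egr1 also passed with the Hox covariate (0.71 on the log2 scale, adjusted p = 0.042, edgeR).

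Within untreated G93A mice, 5 of 10 members differed between 155 and 90 days, against 33.7% of genes. Fos rose 2.63-fold (33.8 ± 12.2 against 13.02 ± 1.77 CPM, SD, n = 4), Junb 2.45-fold and Btg2 1.96-fold (17.4 ± 4.58 against 8.95 ± 1.88 CPM), with adjusted p of 7.3e-06, 3.1e-05 and 0.00022 in edgeR's test. Npas4 fell 1.51-fold (2.84 ± 0.398 against 4.36 ± 1.03 CPM, adjusted p = 0.034) and Arc 1.49-fold (adjusted p = 0.026). Arc lost the call without replicate 9 at 90 days or 11 at 155 days (adjusted p of 0.15 and 0.13) or in a fit of only the compared groups (0.055), and Npas4 without replicate 9 or 11 at either age (adjusted p between 0.054 and 0.11) or with the Hox covariate (0.20), and it stood at 0.053 without the mice above the Schwann cell or liver limit. Within untreated WT mice 1 of 10 members differed, against 24.9% of genes. Npas4 was at 2.55, 2.90, 3.96 and 5.30 CPM at 155 days and at 4.46, 5.18, 6.97 and 7.03 CPM at 90 days, a fall of 1.58-fold (adjusted p = 0.021, edgeR). It lost the call without replicate 1 or 4 at 90 days or replicate 1 or 2 at 155 days (adjusted p between 0.063 and 0.093). Fosb was higher in older WT mice by 0.75 ± 0.30 SE and did not pass (adjusted p = 0.062), except without replicate 2 at 90 days or replicate 2 or 3 at 155 days (0.014, 0.044 and 0.041). Marker lists also differed between the ages. In untreated WT mice oligodendrocyte markers fell in 5 of 5 (summed level 20570 to 22970 against 31770 to 38780 CPM), Schwann cell markers fell in 4 of 4 and neuron markers rose in 4 of 10 (3134 to 3718 against 2496 to 3002 CPM), while caudal Hox genes stood at 90.7 to 158 against 19.5 to 100.4 CPM and passed in 0 of 10. In untreated G93A mice oligodendrocyte markers fell in 4 of 5, neuron markers in 4 of 10 and caudal Hox genes in 3 of 10, and astrocyte markers rose in 5 of 6 and microglia markers in 7 of 7. Their part in the differences between ages was not tested. Libraries of the 2 ages carry no batch label, so a batch and the age cannot be told apart.

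The wider pathway was read in the same comparison of untreated mice at 155 days, in which 21.3% of all genes rose and 18.2% fell. These counts are a description, and no list was tested against the other genes. Of 20 other immediate early transcription factors 11 rose and 1, Nr4a2, fell, with a median log2 fold change of 0.84. The 3 with the smallest adjusted p were Atf3, a stress-induced factor of the CREB family (30.5 ± 7.31 against 1.497 ± 0.310 CPM, SD, n = 4, log2 4.38, adjusted p = 2.8e-09), the AP-1 subunit Fosl1 (3.66 ± 1.38 against 0.138 ± 0.0997 CPM) and Myc (9.30 ± 2.14 against 2.15 ± 0.273 CPM, log2 2.16). Fosl1 was counted 1 to 7 times in each WT mouse, so its fold rests on few reads. Jun, the main partner of Fos and named here after its value was seen, was at 154 ± 28.3 against 84.2 ± 15.5 CPM (log2 0.91, adjusted p = 1.4e-05, edgeR). Nr4a2, a neuronal nuclear receptor, was at 2.31 ± 1.05 against 3.83 ± 1.10 CPM (log2 -0.67, adjusted p = 0.044, edgeR), and with the Hox covariate this list gave 10 rises and 0 falls.

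Of 14 genes listed as activity-induced effectors 6 rose and 2 fell, with a median of 0.08. The cells in which they changed were not tested in this whole tissue. Trib1 (log2 1.83), Rgs2 (0.50), a regulator of G protein signalling, and Gadd45b (0.94) had the smallest adjusted p. The 2 that fell were Pcsk1, a prohormone convertase (-0.48), and Rasgrf1, a calcium-dependent activator of Ras in neurons (-0.55), and with the Hox covariate the list gave 6 rises and 1 fall. Bdnf, the neurotrophin, was at -0.20 and did not pass. Of 17 feedback regulators of signalling and RNA 10 rose and 0 fell, with a median of 0.74. Socs3, an inhibitor of cytokine signalling, was at 33.7 ± 16.7 against 2.23 ± 0.619 CPM (log2 3.96, adjusted p = 4.6e-09), Ccn1 at 46.5 ± 30.1 against 3.24 ± 0.471 CPM (log2 3.87) and Mcl1 at 205 ± 43.5 against 95.9 ± 7.34 CPM (log2 1.14, edgeR).

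**Figure D3:**
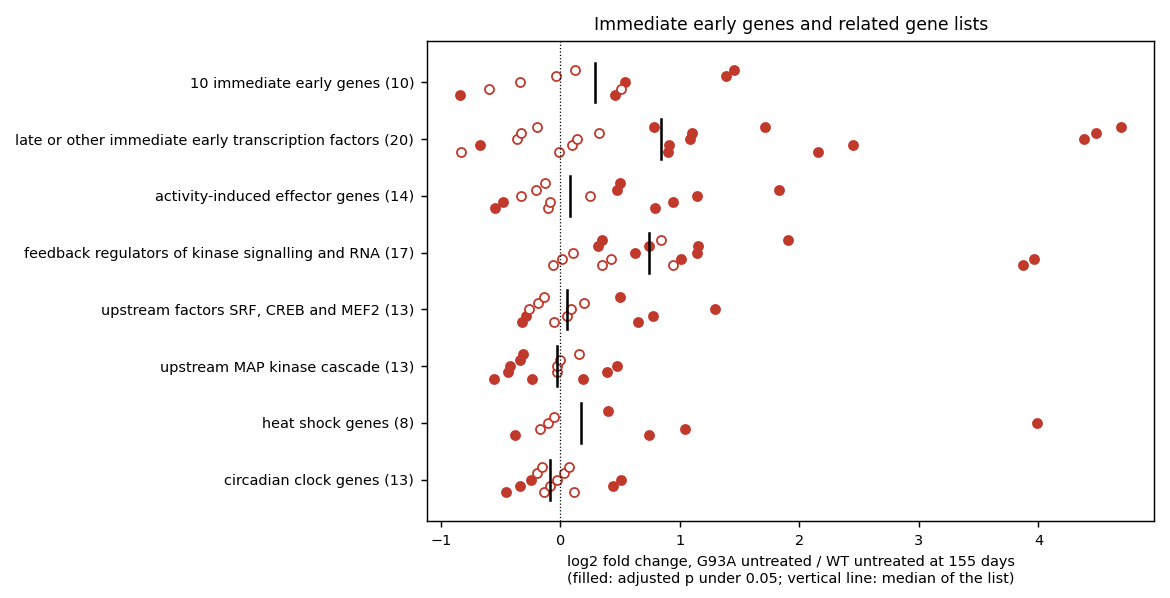
Log2 fold change of each gene (points, horizontal axis) for genotype in untreated mice at 155 days, for the 10 genes and 7 related lists with their sizes in brackets. Filled points passed an adjusted p under 0.05 and vertical lines are list medians. Atf3 (4.38, other immediate early transcription factors), Socs3 (3.96, feedback regulators) and Hspb1 (3.99, heat shock list) lie far to the right. The MAP kinase cascade and clock lists run from -0.55 (Mapk9) to 0.51 (Bhlhe41), with the clock gene Per1 placed in the activity-induced list.

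Upstream of the early genes, of 13 genes of the SRF, CREB and MEF2 families 4 rose, Elk3 (log2 1.29), Mef2c (0.78), which microglia also express, Crem (0.65) and Elk4 (0.50), and Crtc1 (-0.32) and Mrtfb (-0.29) fell. Of 13 MAP kinase cascade genes 3 rose, Rps6ka1 (0.48), Rps6ka3 (0.39) and Mapk14 (0.19), and 6 fell, led by Rps6ka2 (-0.44), Mapk8 (-0.42) and Mapk9 (-0.55). Of 8 heat shock genes 4 rose, Hspb1 (3.99), Hspa1b (1.04), Hspa1a (0.74) and Bag3 (0.40), and Hsph1 fell (-0.38), and Hspa1a and Hspa1b are near-identical copies whose reads can be split between them. Of 13 listed clock genes 2 rose, Bhlhe41 (0.51) and Npas2 (0.44), and 3 fell, Nr1d2 (-0.45), Per3 (-0.34) and Tef (-0.24). Per1, another clock gene, was counted in the activity-induced list instead and rose (0.79, adjusted p = 0.013, edgeR). The medians of these 4 lists were 0.06, -0.02, 0.17 and -0.08. With the Hox covariate the MAP kinase cascade gave 0 rises and 4 falls, the SRF, CREB and MEF2 families 4 and 0, the heat shock genes 4 and 0, and the clock genes 2 and 2. At 90 days 0 genes of these 7 lists passed averaged over treatments, and 0 passed for OKN007 in G93A mice at 155 days.

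The last question was whether the genes varied together among mice of the same group. Each mouse's deviation from its group mean of log2(CPM + 1) was taken, which removes every group difference, and 9 pairs with Fos were tested by permutation within groups. Junb followed Fos most closely (Pearson's r = 0.69, permutation p = 0.00053, adjusted p = 0.0048, and Spearman's rho = 0.65, permutation p = 0.00094, adjusted p = 0.0085, 32 mice), and ranked 2 of 19828 genes. Fosb (r = 0.60, permutation p = 0.0017, adjusted p = 0.0077, and rho = 0.52, permutation p = 0.0067, adjusted p = 0.020) and Egr1 (r = 0.58, permutation p = 0.0027, adjusted p = 0.0082, and rho = 0.60, permutation p = 0.0019, adjusted p = 0.0085) ranked 17 and 24. Over all genes r with Fos had a median of 0.02 and ran from -0.31 to 0.33 between the 5th and 95th percentiles. Genes are not independent replicates.

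**Figure D4:**
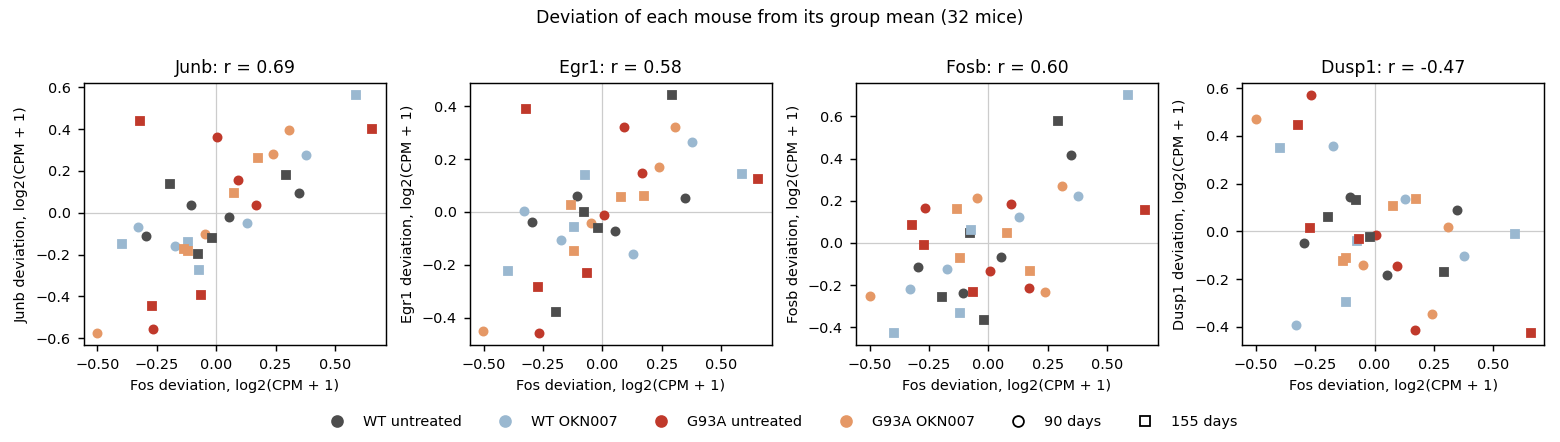
Deviation of each of 32 mice from its group mean in log2(CPM + 1), for Fos (horizontal axes) against Junb, Egr1, Fosb and Dusp1 (vertical axes). Circles are 90-day and squares 155-day mice, and colours are the groups. Mice with more Fos than their group have more Junb, Egr1 and Fosb (r from 0.58 to 0.69), while the relation with Dusp1 (r = -0.47) did not pass the permutation test after adjustment.

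Without the 2 mice farthest from the median of Fos (G93A untreated replicate 10 and WT OKN007 replicate 5, both at 155 days) r was 0.60 for Junb, 0.61 for Egr1 and 0.52 for Fosb. In the 16 mice of 90 days alone r was 0.78 for Junb (adjusted p = 0.0099), 0.73 for Egr1 (0.014) and 0.54 for Fosb (0.19), while rho was 0.79 (adjusted p = 0.0061), 0.65 (0.076) and 0.56 (0.18) by permutation. In the 16 mice of 155 days alone r was 0.61 for Junb, 0.45 for Egr1 and 0.65 for Fosb (adjusted p of 0.24, 0.26 and 0.15 by permutation) and rho was 0.41, 0.52 and 0.43 (adjusted p of 0.37 for each), so none of the pairs passed there. The remaining pairs did not pass over 32 mice. They were Npas4 (r = 0.27, rho = 0.22, permutation p = 0.16 and 0.27), Arc (r = 0.25, rho = 0.21, permutation p = 0.26 and 0.30), Nr4a1 (r = 0.22, rho = 0.19, permutation p = 0.35 and 0.38), Ier2 (r = 0.04), Btg2 (r = -0.04) and Dusp1 (r = -0.47, rho = -0.36, permutation p = 0.027 and 0.084, adjusted p = 0.060 and 0.19). The genes other than members most like Fos were Chl1 (r = 0.69), Iffo2 (0.66), Ddx21 (0.66), Gm20394 (0.66) and Casp12 (0.65), over 32 mice.

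Over the 45 pairs among the 10 genes 29 values of r were above 0, with a median of 0.10. The highest was between Junb and Egr1 (0.73) and the lowest between Arc and Dusp1 (-0.57), given as a description of 32 mice. Egr1 and Npas4 (0.64) and Ier2 and Btg2 (0.58) were also high. Fos, Fosb, Junb and Egr1 were positive with each other in all pairs (0.39 to 0.73), while Dusp1 was positive with Btg2 (0.44) and negative with Npas4 (-0.54). The median r with Fos was 0.06 for neuron, 0.23 for astrocyte and 0.14 for microglia markers. The lowest and highest medians of the marker lists were -0.29 for oligodendrocyte and 0.32 for skeletal muscle markers (3 genes). Single genes ran from -0.31 to 0.33 between the 5th and 95th percentiles.

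**Figure D5:**
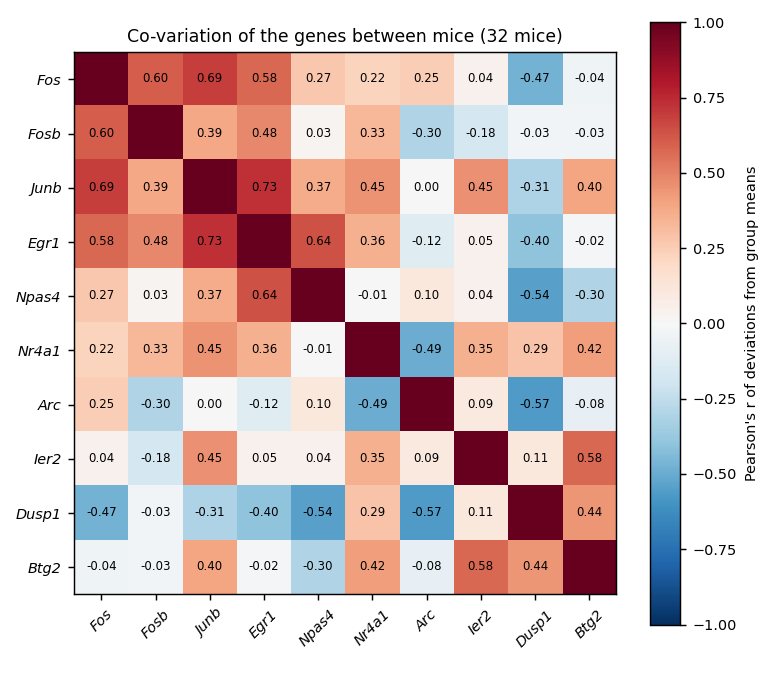
Pearson's r between the deviations of each pair of the 10 genes from their group means over 32 mice, from -1 (blue) to 1 (red). Fos, Fosb, Junb and Egr1 are positive with each other, and Dusp1 is negative with Fos, Egr1, Npas4 and Arc.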

How the data were processed

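Poly(A) RNA of 32 spinal cord samples of 25 mg was sequenced with stranded libraries. The study's methods name Trimmomatic, STAR and HTSeq with GENCODE M10 on GRCm38, while the submitters' processing notes list FastQC, STAR, featureCounts and edgeR with hg38, GRCm39 and mm39, and 1306 of the 42524 gene IDs lie above the highest ID of GENCODE M21, so the annotation was newer than M10. The deposited values are the authors' raw counts per gene, not normalized. Symbols came from GENCODE M21 (41203 of 42524 IDs, 96.9%, with 1321 unmatched).

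Counts were analysed with edgeR 4.0.16 in R 4.3.3 (filterByExpr, TMM, glmQLFit and glmQLFTest, two-sided, Benjamini-Hochberg adjustment over all genes, threshold 0.05). The 16 mice of an age were fitted as 4 groups, and comparisons between ages used all 32. Standard errors came from the F statistic, and 95% intervals used the test's own degrees of freedom. Correlations used a pseudocount of 1 and 100000 permutations of mice within groups. DESeq2 1.42.0, RLE factors and the other settings of the closing section were alternatives. No 2 libraries of a group agreed within sampling noise. Genes of the 7 related lists were named by the 3 smallest adjusted p below the threshold, or because a count of 5 or fewer was given or the value had been seen. The members, lists and tests were chosen with earlier results of these data known. P-values set group differences or correlations against the spread between these mice.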

Additional observations from a re-analysis of the deposited data

Results flagged for a closer look

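Of 80 sets of 4 mice (10 genes in 8 groups), 3 held a mouse far from the other 3, where chance gives about 1 in 20, or 4. Junb stood at 20.1 CPM in replicate 5 of WT OKN007 at 155 days, with the next mouse at 11.98 CPM. Npas4 stood at 2.24 CPM in replicate 9 of G93A untreated at 155 days, with the next at 2.97 CPM. Nr4a1 stood at 16.3 CPM in replicate 9 of G93A untreated at 90 days, with the next at 17.9 CPM.

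The G93A change in untreated mice differed between 155 and 90 days for Fos (1.16 on the log2 scale) and Junb (1.04), by the test of the difference itself in edgeR's fit of 32 mice. At 155 days the microglia and astrocyte markers were higher and the neuron markers and caudal Hox genes lower in G93A mice, and their part in these differences was not tested.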

How the results depend on the processing

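Of 779 recomputed values of 43 member results, 682 kept their direction and side of the threshold, 74 lost and 17 gained the threshold, and 6 changed sign, all 6 being values that had not passed. Fos and Junb kept their calls between G93A and WT mice at 155 days under every alternative tried, Arc under all but the fold limit. Called members for genotype in untreated mice at 155 days (5) were 4 to 6 without single mice and 2 with a log2 fold change of at least 1, and 2 also remained at that limit among OKN007 mice, averaged over treatments and between ages in G93A mice. Of all 18675 genes, 7378 were called for genotype in untreated mice at 155 days, 1717 at the fold limit and 4526 with the Hox covariate. The background moved with the setting too, so lower member counts here and below are not read as particular to these genes. Among OKN007 mice (6) the called members were 3 to 5 without single mice and 3 without the 155-day mice above the Schwann cell or liver marker limit, an alternative chosen after seeing the data. Averaged over treatments (7) they were 7 without single mice and 4 with the Hox score as covariate. For the difference between ages (2) they were 1 to 4, within G93A mice (5) 3 to 5, and within WT mice (1) 0 to 2 without single mice, 2 at an adjusted p under 0.10, 0 at the fold limit and 0 in a fit of only the compared groups. Pairs that passed with Fos were 3 over 32 mice and 0 in the 155-day mice. The values that changed sign were Npas4 (0.090 with the Hox covariate), Nr4a1 (0.012 without the 155-day mice above the marker limit, -0.13 to 0.023 without single mice) and Dusp1 (-0.044 to 0.27 without single mice). The cause of these changes was not tested. In untreated mice at 155 days, the other immediate early transcription factors gave 10 to 11 rises and the feedback regulators 9 to 12 under RLE factors, DESeq2, the Hox covariate and without those mice. The MAP kinase cascade gave 0 to 2 rises and 4 to 6 falls under them, with the lowest counts under the Hox covariate.

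With the replicate number as a block, which the ages share, the counts were 2 (difference between ages), 6 (G93A) and 1 (WT), and the numbers did not pair the mice (correlations of deviations from -0.21 to 0.44). No paired analysis was possible because groups of the same age share no numbers for the other comparisons. Fosb, the least abundant member, had the largest standard error in untreated mice at 155 days (0.31).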

Other observations

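The genes most like Arc in their deviations from group means over 32 mice were Trim59 (r = 0.87), Kdr (0.86) and Hoxd1 (0.85), a search made after the data were seen and given as a description. The genes most like Dusp1 were led by the endothelial early response gene Apold1 (0.75), and those most like Nr4a1 included Arid5a (0.74), Ccn1 (0.70) and Atf3 (0.69). The 5 genes most like Btg2 included Ier3 (0.67) and Klf6 (0.66), and those most like Junb included Slc14a1 (0.79) and the myeloid receptors Cd84 (0.77) and Fcgr2b (0.77).

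In G93A OKN007 mice at 90 days, replicate 16 lay above its group mean for 10 of 10 genes and replicate 13 for 2 of 10. In WT OKN007 mice at 155 days, replicate 5 lay above for 8 and replicate 6 for 1 of 10.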
